A study of Homo sapiens with 6 samples.

Results

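The mitochondrial respiratory chain and the ATP synthase are built from subunits of 5 protein complexes, and the nuclear genes for these subunits were examined in maps of open chromatin. The members were taken by symbol from the RefSeq gene table of GRCh38.p14: the NDUFA, NDUFB, NDUFC, NDUFS and NDUFV genes of complex I, SDHA to SDHD of complex II, the UQCR genes of complex III, numbered COX genes of complex IV, and the ATP5F, ATP5M and ATP5P genes of complex V. This gave 83 of the 19974 protein-coding genes on the autosomes and X, with 37 genes for complex I, 4 for complex II, 9 for complex III, 14 for complex IV and 19 for complex V. Subunits whose current symbols do not follow these patterns, such as COX4I1, CYC1, NDUFAB1 and COXFA4 (long known as NDUFA4), are not members. The members include 2 read-through genes, NDUFC2-KCTD14 and ATP5MF-PTCD1, which share their gene end regions with NDUFC2 and ATP5MF.

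ATAC-seq marks accessible DNA in nuclei by letting the transposase Tn5 cut it and attach adapters. It was done on wild-type hTERT-RPE1, a single human line of retinal pigment epithelial cells immortalised with telomerase. No treatment is named. The 6 libraries carry titles of a set R1 and a set R2 with 3 libraries in each, and what separates the sets is not stated. Each set comes as 1 merged list of peaks, so no value here has a spread between libraries, no test could be run, and differences are described only.

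Complexes I and II pass electrons from NADH and succinate to ubiquinone, complex III passes them to cytochrome c, complex IV passes them to oxygen, and complex V uses the proton gradient built by complexes I, III and IV to make ATP. Complex II is wholly encoded in the nucleus, while the others combine nuclear subunits with a few made from mitochondrial DNA. Promoters of the nuclear genes are textbook targets of NRF1, of the ETS factor GABP, of YY1 and of SP factors. Retinal pigment epithelium is known to rely heavily on mitochondrial oxidation, and complex IV is known for paired isoforms, 1 form used in most tissues and the other in muscle or testis.

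There were 143492 peaks in R1 and 134940 in R2. The fold of a peak is the authors' ratio of its summit over the local background, and it was ranked only within its own list. The fold and p-value of a peak together gave back its pileup over the summit and the background around it. Both are called fragments here, though the sources used do not state what was counted. The median pileup was 72 fragments in each list. Fewer cells with an open site and weaker opening per cell cannot be told apart in such bulk profiles. An open gene end says nothing about how much RNA is made. Of 12 genes listed as markers of retinal pigment epithelium, 9 had a region at a gene end in both lists (75%, against 73.9% of all protein-coding genes) and 4 had one at or above the median fold of each list (33.3%, against 57.3%). The 9 include MITF with folds of 7.79 (R1) and 8.04 (R2) and OTX2 with 3.16 and 3.83, while RPE65, LRAT and TYR had none at a gene end in either list. LRAT had a region over an annotated start in both. Of 12 markers of other cell types, 3 had one in both lists (CKM, GFAP and POU5F1), with folds between 2.36 and 5.24.

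Open chromatin was found at the ends of nearly all respiratory chain genes. A peak that came within 1000 bp of the first or last base of a gene was counted as its gene end region. It was present in both lists at 74 of the 83 members (89.2%), against 73.9% of all protein-coding genes, and no member had one in a single list, against 2.84% of all genes. The other 9 members had none in either list, against 23.3% of all genes. Among them were NDUFA5, UQCRHL, COX6A2, COX7A2, COX7B2, COX8C, ATP5MC2 and ATP5MGL. The share in R1 alone was 75.5% of all genes and in R2 75%. Regions at or above the median fold of each list lay at 71 members (85.5%), against 57.3% of all genes.

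The regions of members were also high within each list. For each gene the strongest of its gene end regions was taken. Among the 74 members the median fold was 9.60 in R1 and 9.45 in R2, against 7.44 and 7.49 over all genes with a region in both lists. Both folds lay above those medians at 55 of 74 members (74.3%), against 44.8% of all such genes. A place in the highest 10% of both lists was held by 21 members (28.4%), against 13.2%. The difference was in the pileup rather than in the background: the median pileup was 341.5 fragments in R1 and 363.5 in R2, against 287 and 303 over all genes, while the median background was 36.6 and 34.7 fragments against 34.96 and 36.24. Median widths were close, 1373.5 and 1433.5 bp for members and 1362 and 1439 bp for all genes.

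**Figure D1:**
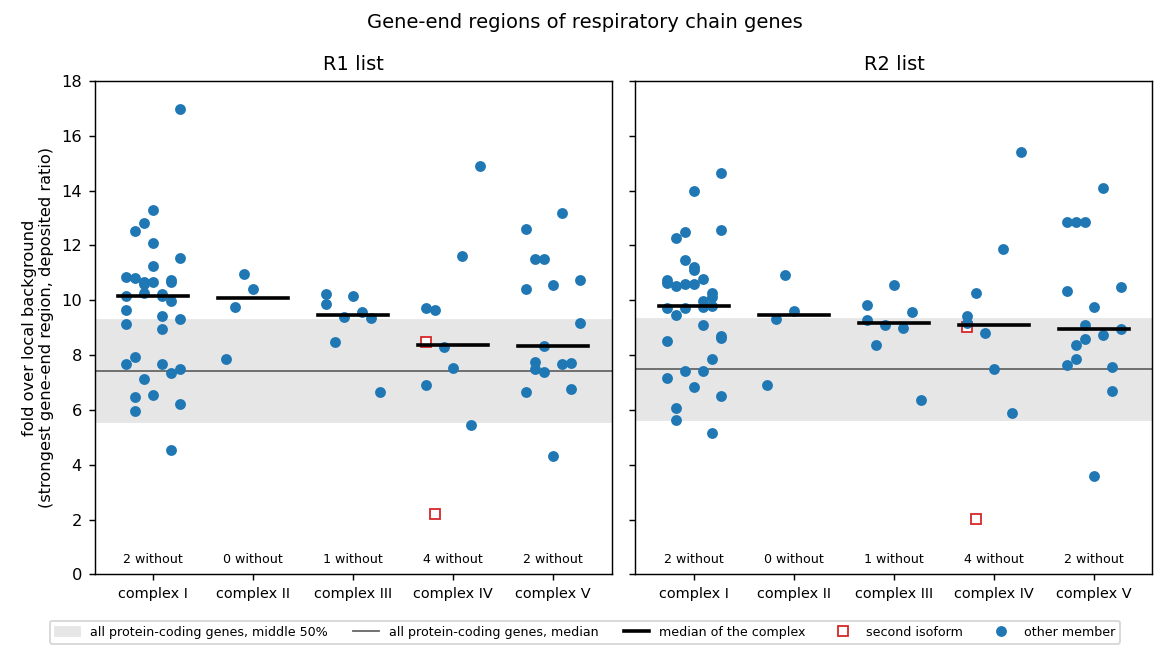
Fold over local background (vertical axis, the authors' ratio) of the strongest gene end region of each member, by complex (horizontal axis), in the R1 list (left) and the R2 list (right). Each circle is 1 gene, open squares are the second isoforms, black bars are medians of the complexes, the grey line and band are the median and middle 50% of all protein-coding genes, and the numbers at the bottom count members with no gene end region. All 5 medians lie above the grey line in both lists, and the open square near 2 is COX7A1.

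Complex I takes electrons from NADH through 7 core subunits encoded in the nucleus, and many accessory subunits surround them. Gene end regions in both lists were found for 35 of its 37 genes, 6 of 7 core genes and 29 of 30 accessory genes. The share was 73.9% over all protein-coding genes, so 6 of 7 is near it. The median folds were 10.1 in R1 and 9.79 in R2 for the complex, 8.55 and 8.79 for the core genes and 10.2 and 9.98 for the accessory genes. The accessory genes thus sat higher in both lists by median fold. A place in the highest 10% of both lists was held by 12 of 29 accessory genes and 0 of 6 core genes. The share was 13.2% over all genes with a region in both lists, so 0 of 6 is near it. The core genes NDUFS3, NDUFS7 and NDUFV1 passed that mark in a single list each. NDUFC2 and its read-through gene are both among the 12 through the same region.

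The highest fold of complex I in both lists was that of NDUFS4, an accessory subunit needed for a stable NADH-binding arm. Its region at the start (chr5:53560192-53561265 in R1 and chr5:53560197-53561304 in R2) had folds of 17.0 and 14.6, with 306 and 279 fragments over the summit and a background of 17.1 and 18.1. Its pileup was near the median of all genes, and its background was the lowest among the complex I genes in both lists. NDUFA12, an accessory subunit of the peripheral arm, followed with folds of 13.3 and 14.0 and pileups of 342 and 349. NDUFB4, of the membrane arm, had folds of 12.8 and 12.5 and pileups of 375 and 374.

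The start of NDUFS4 is shown because it carries the highest fold of all members in R1. The RefSeq promoter tables of GRCh38.p14 give 250 bases before and 50 after a start. Capitals mark every match, on either strand, to 1 of 6 motif strings: GCGC, any base and TGCGC for NRF1, CCGGAAG for ETS factors such as GABP, AANATGGCG for YY1, GGGCGGG for SP and KLF factors, TATAAA for the TATA box and CCAAT for NFY, with N for any base. The strand shown is that of the gene, 5′ to 3′ (chr5:53560389-53560688, plus strand).
NDUFS4: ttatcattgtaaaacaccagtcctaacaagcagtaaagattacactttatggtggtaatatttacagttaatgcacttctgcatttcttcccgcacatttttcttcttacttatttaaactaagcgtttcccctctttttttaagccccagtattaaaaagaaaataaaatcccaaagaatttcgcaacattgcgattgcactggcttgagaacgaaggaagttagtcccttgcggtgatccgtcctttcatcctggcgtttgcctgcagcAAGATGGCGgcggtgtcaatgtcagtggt
Its only match is the YY1 string, which begins 21 bases after the start. The stretch has 40.3% GC and 10 CpG.

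The least enriched regions of complex I were those of NDUFB10 and NDUFS6. NDUFB10, a membrane arm subunit, had folds of 4.53 (R1) and 5.15 (R2) with 289 and 346 fragments, but over a background of 63.1 and 66.4. Its region also lies at the end of the ribosomal protein gene RPS2 and comes within 1000 bp of both ends of the short NDUFB10 gene. NDUFS6, a zinc-binding accessory subunit, had folds of 5.95 and 5.62 in the widest of the members' strongest regions (2922 and 2817 bp), which it shares with the mitochondrial ribosomal protein gene MRPL36. Its pileups, 283 and 293 fragments, lay below the medians of 375 and 372 over complex I, over a background of 46.8 and 51.3.

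Pileup and fold ranked the members differently. NDUFS7, a core iron-sulphur subunit, and NDUFA11, a membrane arm subunit, had the highest pileups of complex I, 559 and 517 fragments for NDUFS7 and 558 and 567 for NDUFA11. NDUFS7 reached folds of 10.6 and 9.72. NDUFA11 reached only 7.12 and 7.44 over a background of 77.5 and 75.4 fragments.

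**Figure D2:**
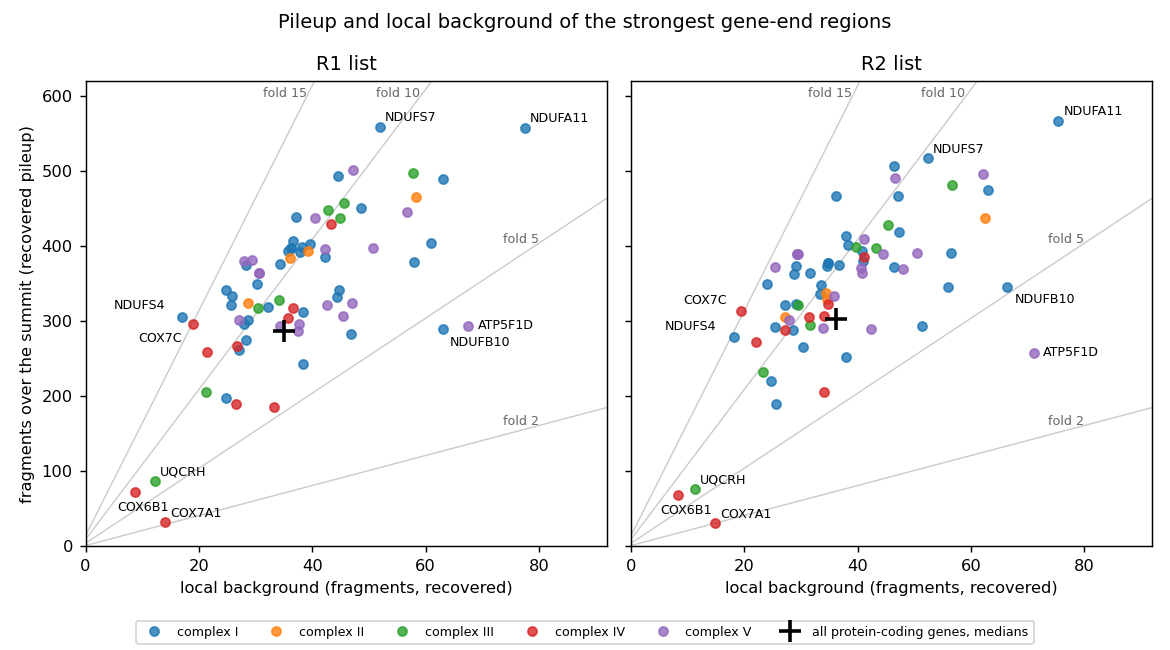
Pileup over the summit (vertical axis, fragments) against local background (horizontal axis, fragments) for the strongest gene end region of each member in R1 (left) and R2 (right), both recovered from the deposited fold and p-value. Points are genes coloured by complex, the cross marks the medians of all protein-coding genes, and grey lines join points of equal fold. NDUFS4 and COX7C reach their folds at a low background, NDUFA11 has the highest background, and COX6B1, UQCRH and COX7A1 lie lowest because their strongest end region by fold is a weak one.

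The other core genes of complex I spread around the median of all genes. NDUFV1, which holds the flavin that accepts electrons from NADH, had folds of 9.43 (R1) and 10.8 (R2), and NDUFS3 had 9.96 and 10.3. NDUFV2, NDUFS1 and NDUFS8, which carry iron-sulphur clusters, had folds of 6.54 to 7.66 in R1, and of 6.83 to 7.86 in R2. NDUFS1 reached this with pileups of 490 and 475 over a background of 63.1 in both lists. These 3 are the core genes near or below the median of all genes.

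Among the remaining accessory genes, NDUFA10, NDUFA9, NDUFB8, NDUFB5, NDUFB2, NDUFB3, NDUFC2 and NDUFA2 stood in the highest 10% of both lists, and so did the read-through gene through the region of NDUFC2. NDUFA10 had folds of 12.5 and 12.3, and NDUFB8 had 11.5 and 12.6. NDUFA3, NDUFA6, NDUFA8, NDUFA13, NDUFB1, NDUFB6, NDUFB7, NDUFB9 and NDUFS5 were above the median of all genes in both lists, with folds from 8.52 to 11.5. NDUFA1, NDUFB11, NDUFC1 and NDUFV3 had folds from 6.09 to 8.70. NDUFA7 had its strongest region at the finish side of the gene, near CD320 (7.94 and 9.46), and 6.89 and 7.10 over its start, which it shares with the ribosomal protein gene RPS28.

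Complex II oxidises succinate, and all 4 of its genes had gene end regions in both lists, all in the upper part by fold. Over all protein-coding genes the shares were 73.9% and 57.3%, and 4 genes are too few to set apart from these. SDHC, which with SDHD anchors the complex in the membrane, had folds of 10.9 (R1) and 10.9 (R2) with 324 and 306 fragments, and SDHD had 10.4 and 9.59 with 384 and 338. SDHB, the iron-sulphur subunit, had 9.77 and 9.31 with 393 and 330. SDHA, the flavin subunit that binds succinate, was lowest by fold with 7.85 and 6.89 and highest by pileup with 465 and 437 fragments. Its region was 2491 and 2343 bp wide and also covers the start of CCDC127, 167 bp away on the other strand.

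Complex III had regions in both lists at 8 of 9 genes, and the exception was the second gene UQCRHL. The share was 73.9% over all protein-coding genes, so 8 of 9 is near it. UQCRC1, a large core protein, had folds of 10.17 (R1) and 10.56 (R2), the highest of the complex in R2, and its pileups were 318 and 321. UQCRQ, a small subunit near the ubiquinone pocket, had 10.25 and 9.83 and was highest in R1, and the small subunit UQCR10 had 9.86 and 9.27. UQCRC2, the other core protein, UQCRB, a ubiquinone-binding subunit, and UQCRFS1, the Rieske iron-sulphur protein, lay between 8.98 and 9.56 in both lists. UQCR11 had 8.48 and 8.37 with high pileups of 498 and 482. Apart from UQCRH and UQCRHL the complex is narrow in range, with folds from 8.37 to 10.6 over both lists.

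UQCRH, the hinge protein that binds cytochrome c1, had its strongest region by fold at the finish side of the gene, with folds of 6.66 and 6.36 but only 87 and 77 fragments. Its start had folds of 6.25 and 5.79 with 504 and 495 fragments, over a background of 79.8 and 84.7. This start region is 3196 and 3141 bp wide and is shared with LRRC41, whose start lies 82 bp away. By pileup UQCRH is thus among the most accessible starts, and its fold is low over a high background.

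The starts of UQCRC1 (chr3:48609597-48609896, minus strand) and UQCRFS1 (chr19:29213102-29213401, minus strand) were chosen for printing after their values were seen, because each holds both the NRF1 and the YY1 string.
UQCRC1: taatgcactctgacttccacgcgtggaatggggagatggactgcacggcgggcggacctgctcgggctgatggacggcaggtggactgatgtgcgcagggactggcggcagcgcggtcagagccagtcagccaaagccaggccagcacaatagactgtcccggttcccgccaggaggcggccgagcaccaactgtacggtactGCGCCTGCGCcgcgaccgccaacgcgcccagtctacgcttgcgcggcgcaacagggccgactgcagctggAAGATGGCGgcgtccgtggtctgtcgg
UQCRFS1: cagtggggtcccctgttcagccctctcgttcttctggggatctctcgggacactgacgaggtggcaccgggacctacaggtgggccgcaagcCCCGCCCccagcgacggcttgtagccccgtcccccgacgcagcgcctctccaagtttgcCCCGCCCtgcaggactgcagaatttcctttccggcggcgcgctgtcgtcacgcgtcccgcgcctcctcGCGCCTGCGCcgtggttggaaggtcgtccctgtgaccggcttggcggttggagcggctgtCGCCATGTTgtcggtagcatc
The NRF1 string begins 47 bases before the start in UQCRC1 and 31 bases before it in UQCRFS1. The YY1 string begins 23 and 29 bases after the start, on the opposite strand in UQCRFS1. This pair of strings occurs in 4 of 67 members with a promoter in the table (NDUFA9, UQCR10, UQCRC1 and UQCRFS1; 5.97%), 1.07% of promoters with a region in both lists and 0.721% of all protein-coding promoters.

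Complex IV had the widest range of folds. Gene end regions in both lists were present at 10 of its 14 genes (71.4%), near the 73.9% of all protein-coding genes. Its members ran from folds of 14.9 (R1) and 15.4 (R2) down to 2.20 and 2.03. COX7C, a small structural subunit with no second form among the members, was highest in R2 of all members, with 296 fragments in R1 and 313 in R2 over a background of 18.9 and 19.4. COX6C, another single-form subunit, had folds of 11.6 and 11.9 with 259 and 272 fragments, and COX5B, a zinc-binding subunit, had 9.65 and 10.3 with 267 and 288. COX5A had folds of 6.90 (R1) and 9.43 (R2), pileups of 189 and 305, and summits 166 bp before the start in R1 and 165 bp after it in R2. Its region spans both positions in both lists, so both summits lie within 1 region.

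The start of COX7C is shown because its fold was the highest in R2 and because none of the 6 motif strings occurs in it (chr5:86617691-86617990, plus strand).
COX7C: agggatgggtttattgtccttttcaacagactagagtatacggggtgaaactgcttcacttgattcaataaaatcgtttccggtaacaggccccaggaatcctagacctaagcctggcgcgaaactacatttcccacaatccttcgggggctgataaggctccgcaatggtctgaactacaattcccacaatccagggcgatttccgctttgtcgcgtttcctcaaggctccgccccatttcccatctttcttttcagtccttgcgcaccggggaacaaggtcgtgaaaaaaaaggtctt
The region extended from 513 bp before to 827 bp after the start in R1, with the summit 24 bp after the start, and 25 bp after it in R2. The printed stretch has 49.0% GC and 15 CpG. Only 1 shared region lay within 50000 bp of this gene, against a median of 9 over members and over all genes.

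The 4 complex IV genes without a gene end region all belong to its isoform pairs. Each pair has a form used in most tissues and a form known from heart and skeletal muscle (COX6A2 and COX7A1) or testis (COX6B2, COX7B2 and COX8C). The 4 are COX6A2, COX7B2, COX8C and COX7A2. COX7A2 is a form used in most tissues and had a region over its second start in both lists. The other member pairs are UQCRH with UQCRHL and ATP5MG with ATP5MGL, in which the second gene is a retrocopy. Over the 7 pairs, gene end regions in both lists were present at 6 of 7 broad forms and 2 of 7 second forms, COX6B2 and COX7A1. The share was 73.9% over all protein-coding genes, so 6 of 7 is near it. Where the table gives a start, all 7 broad forms had a region over a start in both lists, and 1 of 4 second forms had one. Over all genes with a start the share was 69.1%.

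In the muscle pair of subunit 6A, COX6A1 had a region over its start with folds of 8.30 (R1) and 8.80 (R2) and pileups of 304 and 307, and COX6A2 had none. The nearest region present in both lists was 14156 bp from COX6A2. In the pair of subunit 7A, COX7A2 had folds of 10.5 and 9.87 and pileups of 381 and 333 over its second start, while the end regions of COX7A1 had pileups of 32 and 31. The regions of COX7A1 were near the bottom of both lists, with folds of 2.20 (R1) and 2.03 (R2). These 2 regions (chr19:36150868-36151259 in R1 and chr19:36152820-36153042 in R2) lie at different ends of the gene and do not overlap, while a weaker pair of regions 397 bp outside the gene does (folds of 1.91 and 1.96).

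The testis forms did not behave alike. COX7B had folds of 5.44 and 5.87 and pileups of 185 and 205 over its start, and COX8A had 9.74 and 9.16 and pileups of 430 and 385. COX7B2 and COX8C had no gene end region, and the nearest shared regions were 22663 and 13310 bp away. COX7B2 had a small region inside the gene (378 and 348 bp wide, 48 and 43 fragments), 109722 bp from one end and 64696 bp from the other. COX6B2 was the exception: its region had folds of 8.47 and 9.04 and pileups of 317 and 323. COX6B1, its broad partner, had folds of 4.23 and 4.19 over its start with pileups of 335 and 313 and a background of 78.5 and 73.9.

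The COX6B2 region lies mostly inside the gene. It runs from chr19:55353446 to 55354746 in R1, its summit was 642 bp after the annotated start in R1 and 597 bp after it in R2, and it also lies at the end of GARIN5B. It therefore cannot be assigned to COX6B2 alone. Within 50000 bp of COX6B2 there were 19 regions present in both lists, the second highest number of all members. Read against the 27.8% of all genes that share their strongest region with another gene end, COX6B2 was the only complex IV gene of 10 to do so in both lists.

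The starts of these pairs are shown side by side, broad form first, since the presence of a region separates 3 of the 4 pairs. The locations are chr12:120437863-120438162, plus strand for COX6A1 and chr16:31428311-31428610, minus strand for COX6A2, chrX:77899218-77899517, plus strand for COX7B and chr4:46909196-46909495, minus strand for COX7B2, chr11:63974370-63974669, plus strand for COX8A and chr14:93346932-93347231, plus strand for COX8C, and chr19:35648073-35648372, plus strand for COX6B1 and chr19:55354670-55354969, minus strand for COX6B2. Capitals mark the same 6 strings.
COX6A1: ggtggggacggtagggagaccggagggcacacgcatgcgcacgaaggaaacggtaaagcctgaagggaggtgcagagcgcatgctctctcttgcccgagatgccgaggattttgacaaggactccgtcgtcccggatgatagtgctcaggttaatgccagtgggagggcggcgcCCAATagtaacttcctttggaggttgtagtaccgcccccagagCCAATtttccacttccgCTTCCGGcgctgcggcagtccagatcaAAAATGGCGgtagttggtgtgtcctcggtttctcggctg
COX6A2: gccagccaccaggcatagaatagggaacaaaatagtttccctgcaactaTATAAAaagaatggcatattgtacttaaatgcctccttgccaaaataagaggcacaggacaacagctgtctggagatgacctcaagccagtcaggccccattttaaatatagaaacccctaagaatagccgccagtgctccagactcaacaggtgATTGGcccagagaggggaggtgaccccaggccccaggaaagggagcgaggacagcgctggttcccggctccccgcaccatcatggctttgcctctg
COX7B: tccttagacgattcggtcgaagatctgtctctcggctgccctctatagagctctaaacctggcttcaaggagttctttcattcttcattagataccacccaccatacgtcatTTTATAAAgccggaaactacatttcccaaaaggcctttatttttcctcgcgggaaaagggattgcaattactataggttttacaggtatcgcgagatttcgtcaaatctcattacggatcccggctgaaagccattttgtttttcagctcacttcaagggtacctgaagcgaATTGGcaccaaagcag
COX7B2: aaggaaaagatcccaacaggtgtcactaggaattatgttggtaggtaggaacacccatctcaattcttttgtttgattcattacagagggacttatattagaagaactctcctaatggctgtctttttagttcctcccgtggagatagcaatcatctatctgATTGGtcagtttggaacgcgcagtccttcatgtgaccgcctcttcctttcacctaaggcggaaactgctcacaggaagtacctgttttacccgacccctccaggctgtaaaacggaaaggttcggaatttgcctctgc
COX8A: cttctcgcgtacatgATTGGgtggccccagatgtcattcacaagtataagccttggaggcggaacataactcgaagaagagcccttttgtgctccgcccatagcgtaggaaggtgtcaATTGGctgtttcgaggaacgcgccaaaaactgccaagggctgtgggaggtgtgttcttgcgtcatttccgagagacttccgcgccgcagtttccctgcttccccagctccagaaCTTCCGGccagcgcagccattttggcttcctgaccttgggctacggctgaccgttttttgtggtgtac
COX8C: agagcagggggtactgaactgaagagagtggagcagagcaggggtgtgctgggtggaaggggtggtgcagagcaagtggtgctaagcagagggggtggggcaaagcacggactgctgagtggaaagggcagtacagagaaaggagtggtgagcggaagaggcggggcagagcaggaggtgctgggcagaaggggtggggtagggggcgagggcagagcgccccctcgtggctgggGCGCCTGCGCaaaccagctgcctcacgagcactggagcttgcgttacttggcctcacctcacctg
COX6B1: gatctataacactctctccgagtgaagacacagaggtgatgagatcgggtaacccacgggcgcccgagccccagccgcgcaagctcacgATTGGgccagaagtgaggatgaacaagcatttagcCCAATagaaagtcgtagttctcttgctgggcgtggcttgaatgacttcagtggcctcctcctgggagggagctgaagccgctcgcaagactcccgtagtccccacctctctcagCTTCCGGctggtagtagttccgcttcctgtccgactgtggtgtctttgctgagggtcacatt
COX6B2: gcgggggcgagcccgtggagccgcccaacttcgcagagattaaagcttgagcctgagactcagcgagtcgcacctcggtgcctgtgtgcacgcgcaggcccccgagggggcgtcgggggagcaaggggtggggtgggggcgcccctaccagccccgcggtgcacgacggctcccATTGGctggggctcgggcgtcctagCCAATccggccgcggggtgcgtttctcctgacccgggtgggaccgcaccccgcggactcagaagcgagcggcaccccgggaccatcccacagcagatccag
The stretches differ in CpG more than in GC. COX6A1 has 22 CpG and COX6A2 has 5, COX7B has 14 and COX7B2 has 8, COX8A has 18 and COX8C has 10, while COX6B1 has 16 and COX6B2, the only second form with a region, has 31. GC ran from 44.0% (COX7B) to 72.0% (COX6B2), and the closed COX8C start has 64.3%, more than COX8A with 55.0%. The ETS string is present in COX6A1, COX8A and COX6B1 and in none of the 4 second forms, the YY1 string is present in COX6A1 alone, and the NRF1 string in COX8C alone, where it begins 15 bases before a start without a region.

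**Figure D3:**
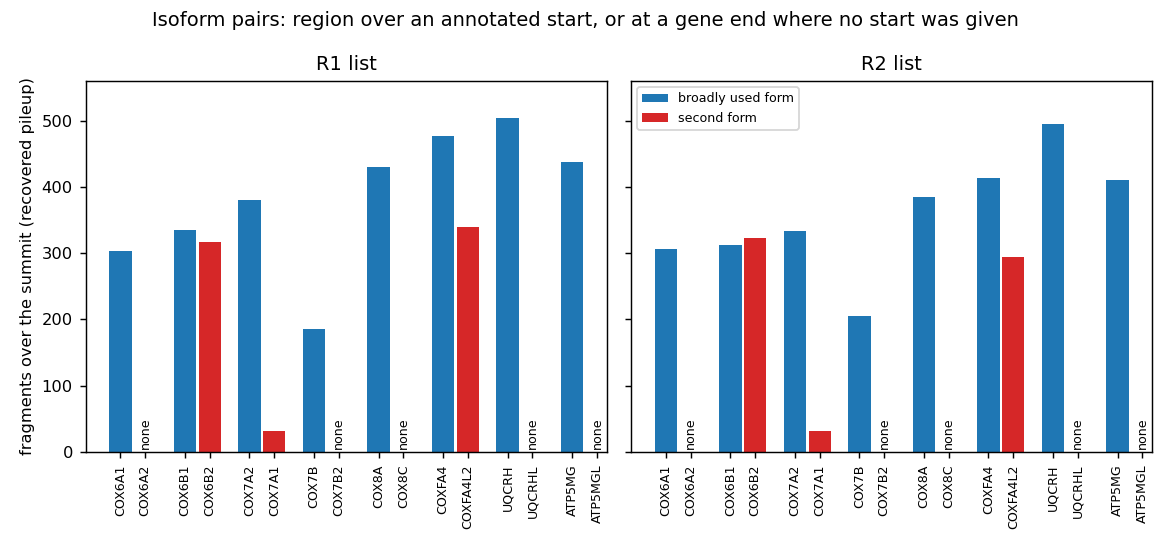
Fragments over the summit (vertical axis, recovered pileup) in R1 (left) and R2 (right) for the isoform pairs, for the region over an annotated start or, where the table gives no start, at a gene end. Blue bars are broadly used forms, red bars are second forms, and "none" marks genes with no such region. All second forms but COX6B2, COX7A1 and COXFA4L2 have none, and COX7A1 has about 30 fragments.

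The retrocopies had no region at their ends. UQCRHL and ATP5MGL lay 5915 and 3313 bp from the nearest region present in both lists. ATP5MG, which encodes subunit g at the foot of the synthase, had folds of 10.6 (R1) and 9.74 (R2) and pileups of 438 and 410. Outside the member list, COXFA4, known as NDUFA4 and now counted to complex IV, had 12.3 and 10.8 with 477 and 414 fragments. Its partner COXFA4L2, known to be induced by hypoxia, had 3.65 and 3.43 with 340 and 294 fragments over a background of 92.5 and 85.0. COX4I1 had 7.73 and 7.26, and its partner COX4I2 had no gene end region in either list.

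Complex V had gene end regions in both lists at 17 of its 19 genes, against 73.9% of all protein-coding genes. They were present at 5 of 5 genes of the catalytic head and 4 of 4 of the peripheral stalk. Of the c ring genes 2 of 3 had one, and of the small membrane subunits 5 of 6, besides the read-through gene. These subgroups are too small to set apart from the share of all genes. ATP5MJ, a small membrane subunit, was first with folds of 13.2 (R1) and 14.1 (R2) and pileups of 380 and 372. ATP5F1A, the alpha subunit of the head, had 12.6 and 12.9 and pileups of 382 and 390, and ATP5MF, the membrane subunit f, had 11.5 and 12.9 and pileups of 364 and 389. The beta, gamma and epsilon genes of the same head, ATP5F1B, ATP5F1C and ATP5F1E, had folds of 7.37 to 7.67 in R1, and of 8.36 to 8.75 in R2. The head genes, whose products are assembled together, thus covered a wide range of folds.

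ATP5F1D, the delta subunit, was the lowest of complex V with folds of 4.30 and 3.60. Its region was narrow, 526 and 385 bp, with 294 and 258 fragments over a background of 67.6 and 71.0. It also had the most crowded surroundings of all members, with 21 regions present in both lists within 50000 bp. ATP5MC1, 1 of 3 genes for the same c ring protein, was next lowest in R2 with folds of 6.77 and 6.69, against 10.7 and 10.5 for ATP5MC3.

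In the peripheral stalk, ATP5PD had folds of 10.4 and 10.3 and the highest pileups of complex V in R1, 501 fragments, with 491 in R2. ATP5PF had 7.74 and 7.87 with 446 and 496 fragments in a region it shares with GABPA, the gene of the DNA-binding subunit of GABP. ATP5PB had 9.17 and 8.96, and ATP5PO, the stalk's link to the head, had 8.34 and 9.10. The ATP5PO region was 1204 bp wide in R1 and 2315 bp in R2, with the same summit in both. The small membrane subunits ATP5ME and ATP5MK had folds from 6.64 to 7.72.

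Of the 9 members with no gene end region, NDUFA5, COX7A2 and ATP5MC2 had strong regions inside the gene. NDUFA5 had folds of 11.6 (R1) and 10.8 (R2) with 349 and 322 fragments over an internal start, with the R1 summit 43648 bp inside the gene from the outermost one. COX7A2 was described above, and ATP5MC2, the remaining c ring gene, had 11.8 and 11.1 with 463 and 410 fragments over its annotated starts. Open chromatin was thus present within these 3 genes, and it lay over an annotated start in each. At the edge of the 1000 bp window, the nearest shared regions were 397 bp from COX7A1 and 1224 bp from NDUFA5.

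Counting over annotated starts instead gave a fuller picture. Starts were taken from the promoter table for 67 members and 15812 protein-coding genes, and a region overlapped the stretch of any annotated start in both lists for 64 members (95.5%) against 69.1% of all genes. The 3 without one were COX6A2, COX7B2 and COX8C, so 63 of 63 members that are not second isoforms had one. By complex the counts were 32 of 32, 3 of 3, 7 of 7, 9 of 12 and 13 of 13. The 16 members outside this count include UQCRHL, NDUFS5, SDHC, ATP5MC3, NDUFB5, ATP5MF-PTCD1, ATP5MF, UQCRB, COX6C, NDUFB9, NDUFC2, ATP5F1B, ATP5F1D, COX7A1 and ATP5MGL.

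At 62 members a region lay over the outermost start in both lists. The regions reached a median of 701 bp upstream and 673 bp downstream in R1 and 703.5 and 669.5 bp in R2. Over all 10174 genes with such a region in R1 and 10529 in R2, the medians were 613 and 774 bp and 618 and 827 bp. The member regions were thus about symmetric, while those of all genes reached further downstream. Summits lay upstream of the start at 37 of 62 members in R1 (59.7%) and 31 in R2 (50%), against 51.4% and 43.4% of all genes. The farthest summits were those of NDUFS6, at -1501 and -1604 bp upstream of its start, and NDUFC1, 1126 and 1355 bp downstream of its outermost start, where NDUFC1 has further annotated starts.

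**Figure D4:**
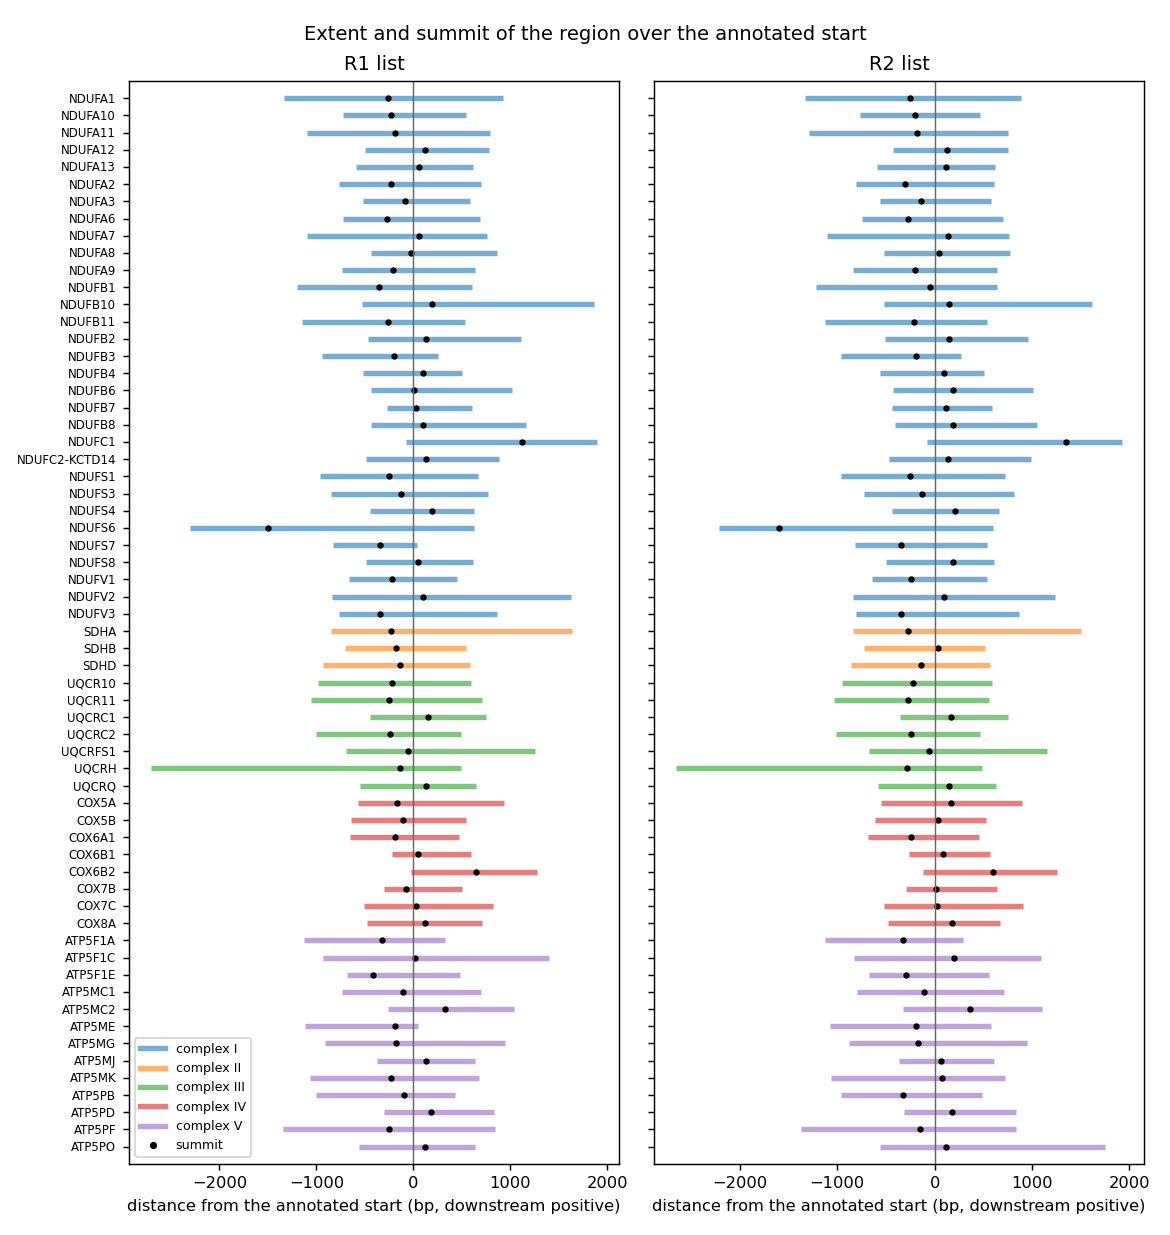
Extent (bars) and summit (dots) of the region over the outermost annotated start of 62 members, in bp from the start with downstream positive (horizontal axis), in R1 (left) and R2 (right), with genes in rows coloured by complex. Most bars reach about equally far to either side, UQCRH and NDUFS6 extend far upstream, and COX6B2 and NDUFC1 lie almost wholly downstream.

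Many members share their open region with a neighbour. The strongest gene end region also lay at the end of another protein-coding gene at 35 of 74 members (47.3%), against 27.8% of all genes with a region in both lists. In 4 of the 35 the neighbour is the overlapping read-through gene or its host. The counts were 21 of 35 for complex I, 2 of 4 for complex II, 2 of 8 for complex III, 1 of 10 for complex IV and 9 of 17 for complex V. Opposed starts within 1000 bp were found for 18 of 67 members (26.9%), against 10.2% of all genes with a start, at a median distance of 168.5 bp against 181 bp.

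The opposed partners have varied roles. They include NDUFS3 with KBTBD4 at 104 bp, NDUFS1 with the elongation factor gene EEF1B2 at 165 bp, NDUFA7 with RPS28 at 121 bp, NDUFA2 with the splicing factor gene IK at 199 bp, ATP5F1A with the spindle gene HAUS1 at 158 bp, ATP5MK with PDCD11 at 151 bp and UQCRH with LRRC41 at 82 bp. Apart from the pairs counted by opposed starts, NDUFB5 and NDUFS6 share regions with the mitochondrial ribosomal protein genes MRPL47 and MRPL36, and SDHD shares its region with TIMM8B, a mitochondrial import gene. None of the 12 complex IV starts had an opposed start within this distance. The share was 10.2% over all genes with a start, so none among 12 is near it. Region values at such pairs belong to both genes. Only genes that have a region can share one, so leaving out the genes that do takes away open genes alone. What is left is 39 of 48 members with a region in both lists, against 67.1% of all genes, and 37 of 48 at or above the median fold of each list, against 50.8%.

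Promoter strings of the textbook regulators were more frequent in the members than in open promoters at large, apart from the SP string. YY1 was found in 16 of 67 member promoters (23.9%), against 6.86% of the 10433 promoters with a region over the outermost start in both lists and 4.79% of all 15812. NRF1 was found in 17 (25.4%), against 12.1% and 8.6%. The ETS string was found in 19 (28.4%), against 19.4% and 14.1%. From complex I to V the counts were 5 of 32 (15.6%), 2 of 3, 3 of 7, 4 of 12 and 5 of 13. In complex I the ETS string was thus no more frequent than in open promoters. At least 1 of the YY1, NRF1 and ETS strings was present in 40 members (59.7%), against 33.4% and 24.1%. GGGCGGG went the other way, with 19 members (28.4%) against 54.4% and 44.1%, CCAAT was about level (24 members, 35.8%, against 37.2% and 36.4%), and TATAAA was present in 7 (10.4%) against 5.61% and 9.75%. A string match is a description of the letters and not a bound site.

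**Figure D5:**
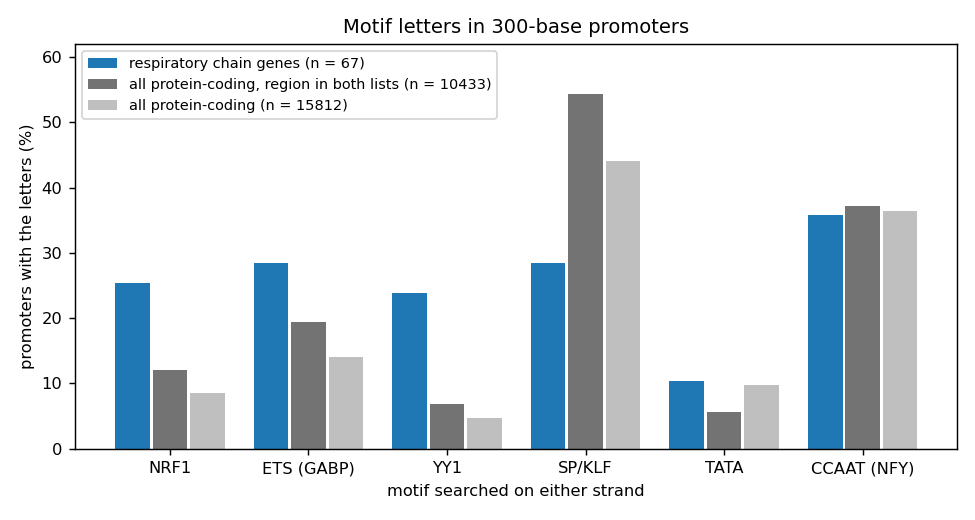
Share of 300-base promoters that hold each motif string on either strand (vertical axis, %) for 67 members (blue), 10433 protein-coding promoters with a region in both lists (dark grey) and all 15812 (light grey). The blue bar is highest for NRF1, ETS and YY1, and lowest for SP/KLF.

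In 11 of the 16 members with a YY1 string (16.4% of 67) it read forward after the start, against 3.78% of open promoters and 2.58% of all, and it began between 8 and 27 bases after the start with a median of 15. The placement was similar elsewhere: 394 of the 507 open promoters with a forward string had it after the start, at a median of 18 bases, so the members differed in how often the string occurred. Among members NDUFS8 and ATP5PF held it before the start, at -180 and -57 bases, and NDUFS1, UQCRFS1 and NDUFV2 held it on the opposite strand. By complex, YY1 strings were found in 10 of 32 promoters of complex I, 1 of 3 of complex II, 3 of 7 of complex III, 1 of 12 of complex IV and 1 of 13 of complex V. The core genes NDUFS1, NDUFS3, NDUFS7, NDUFS8 and NDUFV2 are 5 of the 10 in complex I. NRF1 strings were found in 6 of 32, 2 of 3, 4 of 7, 1 of 12 and 4 of 13 promoters in the same order, with COX8C as the only match in complex IV. SDHA held 4 NRF1 strings, spaced between 166 and 19 bases before the start.

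None of the 6 strings occurred in 9 members (13.4%), against 16.8% of open promoters and 23.4% of all. Besides COX7C these were ATP5PB, COX7A2, NDUFB10, NDUFB2, NDUFB6, NDUFC1, NDUFV1 and the read-through gene NDUFC2-KCTD14. All but COX7A2, whose outermost start was used for the search, had a region there in both lists.

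Member promoters were close to open promoters in CpG and somewhat lower in GC. The median GC was 61.0% in members, 62.7% over all promoters and 65.3% over open ones, and the median ratio of observed to expected CpG was 0.847, 0.762 and 0.842. All promoters were ranked by GC and divided into 4 bins of about equal size. In the bin with the least GC, 32.2% of all promoters had a region over the outermost start in both lists, and 10 of 14 members did. In the next bin 25 of 25 members had one against 67.2%, in the one after it 17 of 18 against 81.8%, and in the richest 10 of 10 against 81.4%. Members were thus mostly open in each bin. Shares of 81.8% and 81.4% over all promoters leave little room for a gap in the richer bins. The size of the gap therefore cannot be compared between bins.

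Other genes of the pathway were open as well. Of 52 assembly factors, which insert cofactors and join subunits, 52 had one in both lists, against 73.9% of all genes, with 50 in the upper part of both lists. SDHAF4, an assembly factor of complex II, had folds of 14.3 (R1) and 15.9 (R2), NUBPL, which serves iron-sulphur insertion into complex I, had 14.7 and 14.3, and COX10, which makes haem for complex IV, had 14.0 and 13.4. The lowest were NDUFAF3 with 3.91 and 4.96 and TMEM70 with 4.33 and 4.84. Their median folds, 9.45 and 9.85, were close to those of the subunit genes.

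Of 14 electron carriers and subunits outside the symbol rule, 12 had a region in both lists (85.7%, against 73.9% of all genes). COX4I2 and PRODH had none. The median folds of the 12, 7.33 (R1) and 7.24 (R2), were slightly below the 7.44 and 7.49 of all genes. CYCS, the gene of cytochrome c, had 7.75 and 7.23, and CYC1, the gene of cytochrome c1, had 6.94 and 7.53. COX7A2L, a paralogue of COX7A2 known for joining complexes III and IV, had only 2.58 and 3.07 with 22 and 26 fragments at its gene ends, although a region lay over an annotated start in both lists. A region at a gene end was present in both lists for 18 of 19 regulators (94.7%, against 73.9% of all genes). ESRRG lacked one there but had a region over an annotated start in both. TFAM, which packs and transcribes mitochondrial DNA, had 10.3 and 10.2, LRPPRC, which stabilises mitochondrial mRNA, had 12.3 and 12.7, NRF1 had 6.24 and 6.88, GABPA had 7.74 and 7.87, and YY1 had 5.04 and 3.70. The regulators' median folds, 7.32 and 7.45, lay near those of all genes and below those of the subunits.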

How the data were processed

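ATAC-seq peaks of wild-type hTERT-RPE1 cells were used as 2 merged lists, R1 and R2, each from 3 libraries. Coordinates are on hg38, per the submitters' processing notes. Which aligner and peak caller were run, with which settings, and whether reads were shifted for Tn5 insertion is not given in the sources used here. Each peak has the authors' deposited fold over background (a ratio), a deposited −log10 p-value and −log10 q-value, and a summit offset. Peaks were ranked, filtered and described by these values within their own list only.

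The number of fragments over a summit was recovered from the fold, read as (pileup + 1)/(background + 1), and the p-value, read as a Poisson tail, which gave the deposited p-value within 0.001 on the −log10 scale for 100% of peaks (rounded). No source used here states this relation, or that the pileup counts fragments. The lowest background was 7.93 fragments in R1 and 7.79 in R2, and no other measure of depth was used.

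Genes and promoter stretches came from RefSeq tables of GRCh38.p14 (19974 protein-coding genes on the autosomes and X, 15812 with a promoter stretch of 250 bases before and 50 after the start). A gene end region is a peak within 1000 bp of either end of a gene, an overlap is at least 1 bp, and shared regions nearby were counted within 50000 bp. Opposed starts were on different strands within 1000 bp. Motif strings were searched on both strands.

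The members, gene lists, isoform pairs and motifs were chosen with earlier results of these data known. Genes named with values are those with a region in neither list or in 1 list, the 3 highest and 2 lowest of each complex by mean within-list percentile of fold, both genes of each isoform pair, and the 5 members with the most shared regions nearby; others were named after their values were seen. The values of 1 member are not reported here, though it is in the counts. Those 5 are ATP5F1D (21 regions), COX6B2 (19), NDUFA7 (17), UQCRC1 (15) and ATP5MF-PTCD1 (15). The lists hold no replicates, so no test was made and no interval was computed. The pileup and overlap steps were tested on simulated data. Alternatives covered the window, the q-value, the part of each list by fold, the lists required, overlap between lists and the gene set. The scripts ran in Python 3.11.15 with pandas 2.3.3, numpy 2.4.6, matplotlib 3.10.9 and scipy 1.17.1.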

Additional observations from a re-analysis of the deposited data

How the results depend on the processing

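Of 109 alternatives over 10 counts, 99 stayed within 1.5 times the reported count. Apart from the second isoforms, the counts lie too near the number of genes in each set to rise that far. The tally therefore says little about how stable the counts are. Members open at a gene end in both lists numbered 74 with a window of 500 bp and 75 with 2000 bp, while the share of all genes went from 69.5% to 78.5%. They numbered 73 at a −log10 q-value of at least 5 and of at least 10, and 74 in R1 alone, R2 alone and either list. Leaving out members that share their region with another gene end gave 39 of 48 members, 34 of 37 over an annotated start, 14 of 16 for complex I, 2 of 2 for complex II, 8 of 10 for complex V, 1 of 6 second isoforms and 37 of 48 in the upper part of both lists by fold; only genes that have a region can share one, so only open members leave these counts by construction, and the share of all genes was 67.1% and, for the upper part, 50.8%. Second isoforms with a gene end region numbered 2 as reported, COX6B2 and COX7A1, and 1 at a −log10 q-value of at least 5, at a −log10 q-value of at least 10 and in the upper part of each list by fold.

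No paired analysis was possible because the libraries of each set are merged into 1 list, and for the same reason single replicates could not be left out. The depth of single libraries was not used here, so a missing region says only that none was called in these pooled lists. Gene ends are the outer limits of the gene models, and genes with several starts were searched for motifs at the outermost one.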

Other observations

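The members on the X chromosome, NDUFA1, NDUFB11 and COX7B, had mean within-list percentiles of fold of 71.3, 62.5 and 56.0, below the median of 88.8 of the members outside chromosomes X and 19. Their median pileups were 197 and 205 fragments in R1 and R2, against 364 and 370 for those members. Over the 441 X-linked genes open at an end in both lists, the median percentile was 74.6 and the median pileups were 174 and 175 fragments, so low pileups were common on X, over a median background of 21.1 and 20.9 fragments. The 3 members had a median background of 33.2 and 34.1. Chromosome 19 carries 12 members, all with a region in both lists, with a median percentile of 81.2.

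Pseudogenes whose symbols follow the same patterns were open about as often as pseudogenes in general. Of 129, 16 had a region within 1000 bp of an end in both lists (12.4%), against 13.8% of all 16458 pseudogenes. Away from the ends of protein-coding genes the counts were 13 of 121 (10.7%) and 12.3%. The 16 include NDUFS5P3, NDUFB4P4, UQCRBP2, ATP5MGP3 and ATP5F1AP4. Reads of recent copies can be hard to place, and how such reads were handled is not given in the sources used here.

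Both lists also hold 2 peaks on the mitochondrial genome, which encodes some of the other subunits. In R1 they span positions 114 to 3978 and 12566 to 16444, with folds of 1.19 and 1.21. In R2 they span 138 to 3978 and 12608 to 16439, with folds of 1.25 and 1.18. The first overlaps part of ND1, and the second overlaps ND5, ND6 and CYTB. Pileups over these summits were 8760 fragments for the second R1 peak and 7658 and 8118 for the R2 peaks. The highest nuclear member regions had 559 and 567 fragments. The mitochondrial background was high as well, 7249.6 fragments for the second R1 peak and 6127.9 and 6877.5 for the R2 peaks. The first R1 peak is left out because its pileup was not recovered.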
